A study of Homo sapiens with 6 samples.

Results

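The E2F and retinoblastoma family genes described here are E2F1, E2F2, E2F3, E2F4, E2F7, E2F8, the dimerization partner gene TFDP1 and the pocket protein genes RB1, RBL1 and RBL2. They were taken by gene name, and all 10 were among the 12227 genes of the deposited table. The samples were PC3 cells, an established human prostate carcinoma line: 3 libraries carried a control shRNA (short hairpin RNA; genotype given as WT) and 3 carried shRNA against VprBP (genotype given as VprBP knockdown). VprBP is the protein product of DCAF1, a substrate receptor of a cullin 4 ubiquitin ligase. The study as a whole concerns inhibitors of VprBP kinase activity; inhibitor-treated cells were not analysed here. The labels do not say whether sh1 to sh3 were different hairpins, cultures or libraries of 1 culture, so p-values measure the spread between these libraries, which may be technical.

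E2F proteins bind promoters of genes needed for DNA synthesis and division, most of them as dimers with a DP protein such as the product of TFDP1. The pocket proteins pRB (RB1), p107 (RBL1) and p130 (RBL2) hold E2F in check until cyclin-dependent kinases phosphorylate them. E2F1, E2F2 and E2F3 are classed as activators and E2F4 as a repressor that works with p107 and p130, whereas E2F7 and E2F8 bind DNA without a DP partner and repress E2F targets late in the cycle. p130 is the main pocket protein of resting cells, and p107 is itself made from an E2F target gene in cycling cells.

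Depletion of the target was visible in the libraries: DCAF1 was 78.8 ± 0.465 in control cells and 39.9 ± 1.36 in knockdown cells (SD, n = 3 each). Values are the deposited ones, read numbers scaled by a factor per library, with 22981867 to 39633827 estimated reads per library over the listed genes. The standard deviation of the log2 difference between libraries was 0.12 to 0.17 within groups and 0.44 to 0.47 between them. Knockdown replicate 3 lay farther from the other knockdown libraries (0.15 and 0.17) than those lay from each other (0.12). All 5 epithelial markers examined (KRT8, KRT18, EPCAM, CDH1 and CD44) were listed, with a summed value of 1948 to 1995 in control and 2574 to 2691 in knockdown libraries; 4 of them were called higher and CDH1 was called lower (342 ± 1.88 to 323 ± 6.35, SD, n = 3 each), a call lost under 9 of 16 alternatives. Of 10 leukocyte, endothelial and fibroblast markers, PECAM1 and COL1A1 were listed, summing to 78.2 to 79.3 in control and 43.7 to 52.7 in knockdown libraries. PECAM1 fell 2.33-fold, from 54.2 ± 1.14 to 23.3 ± 0.695, and COL1A1 was 24.4 ± 0.9 and 24.7 ± 4.05 (SD, n = 3 each; limma adjusted p = 0.951). The part of either marker list in the results below was not tested.

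In knockdown cells, 6 of the 10 genes were higher, 2 were lower and 2 did not pass the test (limma, Benjamini-Hochberg adjusted p under 0.05 over all listed genes). E2F7, RBL1, E2F8, E2F1, TFDP1 and RB1 rose, RBL2 and E2F2 fell, and E2F3 and E2F4 were not called. These counts stand against a background in which 60.9% of all listed genes were called, 33.0% higher and 27.8% lower. The groups did not overlap for 9 of the 10 genes, all but E2F4, against 64.8% of all genes. The median log2 fold change was 0.21 over the 10 genes and 0.02 over all genes. Only E2F7 was both called and at least 1.5-fold changed, as were 12.3% of all genes, and 5.89% of all genes were called and at least 1.5-fold higher. In bulk RNA, a different share of cells in a given cell cycle phase and a different amount of RNA per cell cannot be told apart.

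**Figure D1:**
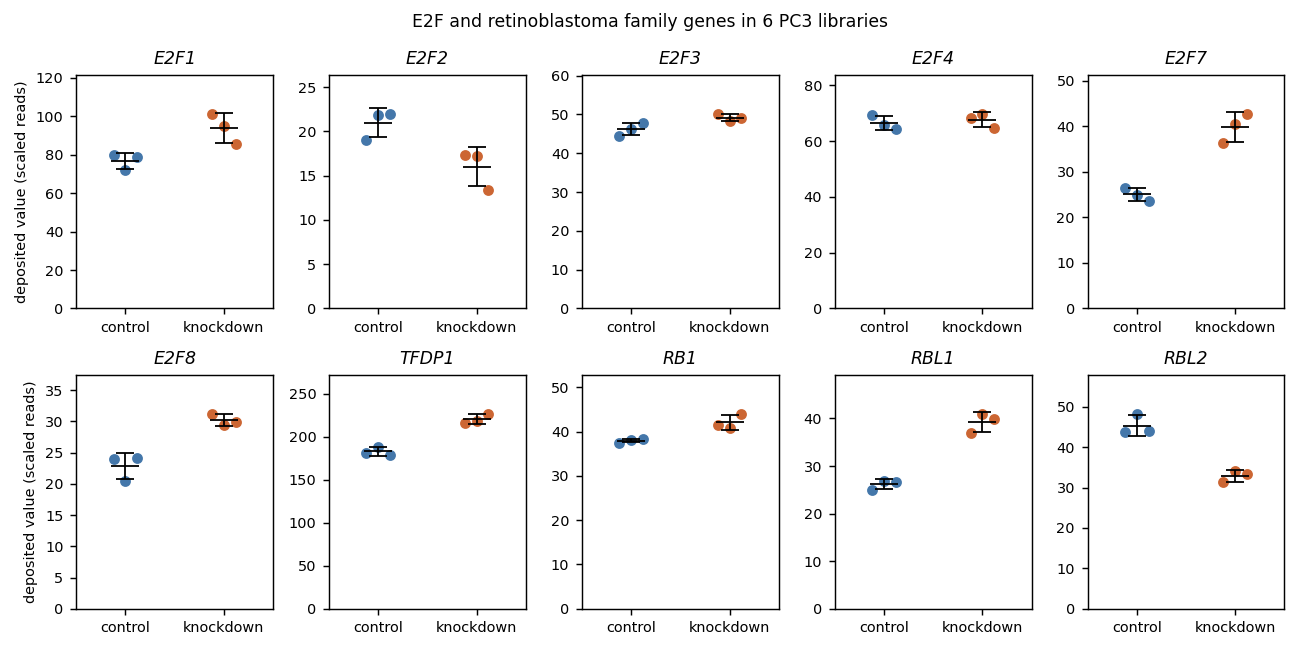
Deposited value (scaled reads, linear axis from 0) of each of the 10 genes in the 3 control and 3 knockdown libraries; points are libraries, and the bar and whiskers are the mean and SD. The groups overlap for E2F4 only, and RBL1 and RBL2 move in opposite directions.

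Promoter sequences are shown for the 2 genes of the family with the largest increase (E2F7 and RBL1), for the 2 that fell (RBL2 and E2F2) and for E2F1, since E2F proteins are known to act on promoters of their own family. Each window is RefSeq's (GRCh38.p14), from 250 bases before to 50 bases after a start site, written 5′ to 3′ on the gene's strand, and capitals mark any match to an E2F-type 8-letter motif. The motifs searched on both strands were TTTCCCGC, TTTCGCGC, TTTGCCGC and TTTGGCGC, and matches in the printed windows do not overlap one another.
E2F7, chr12:77065520-77065819, minus strand: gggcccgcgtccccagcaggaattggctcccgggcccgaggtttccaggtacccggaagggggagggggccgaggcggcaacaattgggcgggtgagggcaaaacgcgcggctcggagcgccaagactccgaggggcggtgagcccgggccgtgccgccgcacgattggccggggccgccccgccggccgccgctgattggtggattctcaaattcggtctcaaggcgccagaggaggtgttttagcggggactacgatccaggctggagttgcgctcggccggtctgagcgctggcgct
RBL1, chr20:37095948-37096247, minus strand: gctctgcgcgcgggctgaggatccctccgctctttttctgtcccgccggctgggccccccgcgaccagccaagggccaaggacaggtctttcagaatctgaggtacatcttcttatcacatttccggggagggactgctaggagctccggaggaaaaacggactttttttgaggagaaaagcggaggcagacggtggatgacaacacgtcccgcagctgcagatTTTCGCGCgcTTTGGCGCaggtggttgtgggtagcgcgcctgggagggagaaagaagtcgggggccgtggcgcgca
RBL2, chr16:53434221-53434520, plus strand: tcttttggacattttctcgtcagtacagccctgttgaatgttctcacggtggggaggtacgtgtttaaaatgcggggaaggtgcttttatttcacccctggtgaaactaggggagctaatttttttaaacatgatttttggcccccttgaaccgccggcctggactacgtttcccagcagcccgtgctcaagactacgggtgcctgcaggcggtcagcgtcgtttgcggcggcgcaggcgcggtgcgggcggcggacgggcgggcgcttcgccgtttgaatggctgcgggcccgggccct
E2F2, chr1:23531184-23531483, minus strand: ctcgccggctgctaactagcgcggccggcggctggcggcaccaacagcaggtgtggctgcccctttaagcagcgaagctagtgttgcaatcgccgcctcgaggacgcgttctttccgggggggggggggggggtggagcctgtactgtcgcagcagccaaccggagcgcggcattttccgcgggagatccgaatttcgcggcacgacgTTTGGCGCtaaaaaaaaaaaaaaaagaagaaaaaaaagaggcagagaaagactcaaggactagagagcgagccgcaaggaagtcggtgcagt
E2F1, chr20:33686336-33686635, minus strand: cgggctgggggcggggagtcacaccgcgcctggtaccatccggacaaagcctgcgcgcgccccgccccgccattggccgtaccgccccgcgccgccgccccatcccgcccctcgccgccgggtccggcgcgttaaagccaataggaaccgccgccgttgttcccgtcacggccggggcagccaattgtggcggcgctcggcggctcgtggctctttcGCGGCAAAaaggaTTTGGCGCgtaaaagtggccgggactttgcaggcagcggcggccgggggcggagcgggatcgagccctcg

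A RefSeq window within 2000 bases of the deposited gene start was found for 8 of the 10 genes, not counting E2F8 and RB1. The motif was present in 5 of these 8: E2F1, E2F2, E2F3, RBL1 and TFDP1. It was present in 3.31% of all 35116 windows of this length in the table and for 6.63% of the 8376 listed genes with a window near their start. RBL1 had TTTCGCGC from base -26 to -19 and TTTGGCGC from -16 to -9, counted from the start site as 0. E2F1 had TTTGGCGC from -20 to -13 and TTTGCCGC on the opposite strand from -33 to -26, and E2F2 had TTTGGCGC from -42 to -35. TFDP1 had TTTCGCGC on the opposite strand from -120 to -113. E2F3 had TTTCCCGC on the opposite strand from -53 to -46 in the window at its upstream start, and no match in the window 1735 bases downstream. The genes with a match thus include 3 that rose (E2F1, RBL1 and TFDP1), 1 that fell (E2F2) and 1 that was not called (E2F3). The windows of E2F7, RBL2 and E2F4 had none of these letters. Among all listed genes with a window, 39.5% of the 555 with a match and 34.1% of the 7821 without one were called higher, and the median log2 fold changes were 0.07 and 0.03.

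Among the activator genes, E2F1 rose, E2F2 fell and E2F3 was not called. E2F1, which drives entry into S phase, had values of 79.9, 72.0 and 78.6 in control replicates 1 to 3 and 101, 94.9 and 85.8 in knockdown replicates 1 to 3. Every knockdown library was above every control library, with knockdown replicate 3 closest to the controls. The difference was 1.22-fold, with a log2 fold change of 0.29 (SE 0.06, limma adjusted p = 0.000423), and 0.35 without knockdown replicate 3. E2F1 (ENSG00000101412.13) spans 33675477 to 33686385 of chromosome 20, minus strand (hg38).

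E2F2 went the other way. This activator gave 19.1, 21.8 and 22.0 in the control libraries and 17.3, 17.3 and 13.4 in the knockdown libraries. The groups did not overlap, and knockdown replicate 3 was the lowest. E2F2 was 1.31-fold lower, with a log2 fold change of -0.39 (SE 0.10, limma adjusted p = 0.00249). Without knockdown replicate 3 the log2 fold change was -0.27 (limma adjusted p = 0.00815). E2F2 had 306 to 682 estimated reads per library, the fewest of the 10 genes, and at 306 reads counting error alone is 5.72%. E2F2 (ENSG00000007968.7) spans 23506438 to 23531233 of chromosome 1, minus strand.

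E2F3 encodes the E2F3a and E2F3b proteins from separate start sites, which the gene-level values do not separate. It gave 44.6, 46.3 and 47.7 in control libraries and 50.2, 48.3 and 49.0 in knockdown libraries. The groups did not overlap, but the gap between them was small and the test did not pass, with a log2 fold change of 0.09 (95% interval -0.02 to 0.20, limma adjusted p = 0.131). E2F3 (ENSG00000112242.16) spans 20401879 to 20493714 on the plus strand of chromosome 6.

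The repressor E2F4, which carries p107 and p130 to promoters, showed no detectable difference. Control libraries gave 69.4, 65.6 and 64.4, and knockdown libraries gave 68.4, 69.8 and 64.7. The groups overlapped, and the log2 fold change was 0.03 (95% interval -0.08 to 0.13, limma adjusted p = 0.666). E2F4 (ENSG00000205250.9) spans 67192155 to 67198918 on the plus strand of chromosome 16. GENCODE 29 lists processed pseudogenes of E2F3 (E2F3P1 and E2F3P2) and of E2F4 (E2F4P1), so some reads of these genes could have been split between copies. The ratio of E2F1 to E2F4 within a library, which does not depend on library scaling, was 1.15, 1.10 and 1.22 in control and 1.48, 1.36 and 1.33 in knockdown libraries. It was higher in every knockdown library than in any control library, by 1.2-fold, and the exact permutation test (two-sided) gave p = 0.1, the smallest that 3 libraries against 3 allow.

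Both atypical repressor genes rose, and E2F7 had the largest change of the family. E2F7 gave 26.4, 25.0 and 23.7 in control libraries and 36.3, 40.4 and 42.8 in knockdown libraries. All knockdown libraries lay well above the controls, a 1.59-fold difference with a log2 fold change of 0.66 (SE 0.07, limma adjusted p = 4.82e-07). Its absolute log2 fold change exceeded that of 90.8% of all listed genes. E2F7 (ENSG00000165891.16) spans 77021248 to 77065569 of chromosome 12, minus strand.

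E2F8, the closest relative of E2F7, gave 24.0, 20.5 and 24.2 in control libraries and 31.2, 29.5 and 30.0 in knockdown libraries. The knockdown libraries were all higher, and control replicate 2 was the lowest of the 6. The difference was 1.32-fold, with a log2 fold change of 0.40 (SE 0.07, limma adjusted p = 0.000153). E2F8 (ENSG00000129173.13) spans 19224063 to 19241620 of chromosome 11, minus strand.

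TFDP1, which encodes the DP1 partner that most E2F proteins need to bind DNA, gave 182, 189 and 179 in control libraries and 216, 219 and 227 in knockdown libraries. The groups were clearly apart, and the gene was 1.2-fold higher (log2 fold change 0.27, SE 0.04, limma adjusted p = 8.41e-06). It had the most estimated reads of the 10 genes, 4299 to 8498 per library. TFDP1 (ENSG00000198176.13) spans 113584721 to 113641473 on the plus strand of chromosome 13. The related partner gene TFDP2, outside the 10 genes, fell, from 24.3, 23.9 and 22.9 in control libraries to 17.5, 17.4 and 17.0 in knockdown libraries. That was a 1.37-fold decrease (log2 fold change -0.44, SE 0.07, limma adjusted p = 3.08e-05), so the genes of the DP1 and DP2 partners moved in opposite directions.

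**Figure D2:**
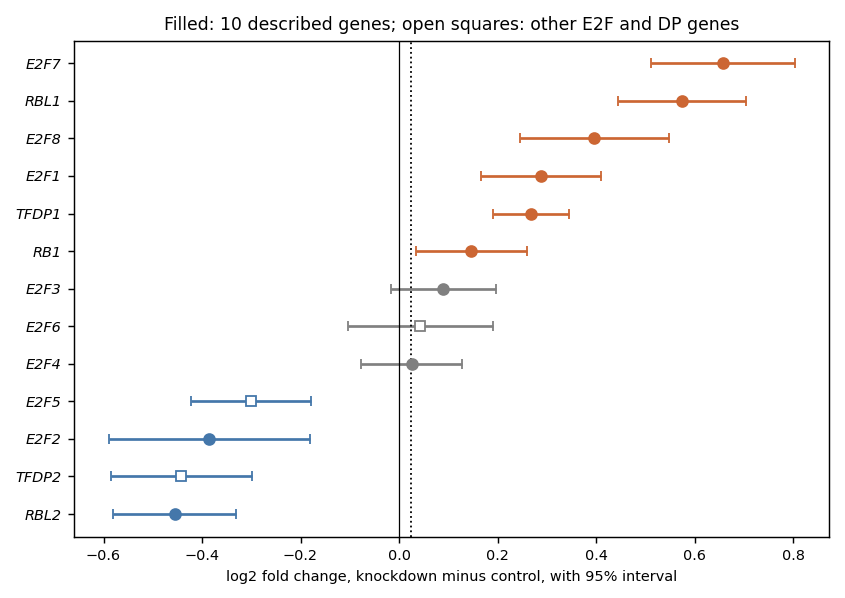
Log2 fold change of knockdown minus control with its 95% interval for the 10 genes (filled circles) and 3 further family genes (open squares); the dotted line is the median of all listed genes, orange is called higher, blue called lower and grey not called. E2F7 and RBL1 lie at the top at 0.66 and 0.57, and RBL2 lies at the bottom at -0.46.

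The pocket protein genes RBL1 and RBL2 changed in opposite directions. RBL1, which encodes p107, gave 25.0, 26.9 and 26.7 in control libraries and 37.0, 41.0 and 39.8 in knockdown libraries. The lowest knockdown library was well above the highest control library, and the difference, just under 1.5-fold, had a log2 fold change of 0.57 (SE 0.06, limma adjusted p = 6.03e-07). RBL1 (ENSG00000080839.12) spans 36996349 to 37095997 of chromosome 20, minus strand. GENCODE 29 places 211 bases of its exons opposite exons of the antisense gene AL136172.1, and without a stated strand setting reads there cannot be told apart.

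RBL2, which encodes p130, gave 43.7, 48.3 and 44.0 in control libraries and 31.3, 34.1 and 33.3 in knockdown libraries. All knockdown libraries were lower, by 1.38-fold on the group means (log2 fold change -0.46, SE 0.06, limma adjusted p = 5.21e-06). RBL2 (ENSG00000103479.17) spans 53433977 to 53491648 on the plus strand of chromosome 16. GENCODE places 610 bases of RBL2 exons opposite exons of AKTIP, and 721 opposite those of AC007342.6, which is not listed. AKTIP gave 18.3, 21.0 and 21.9 in control libraries and 22.4, 23.3 and 26.9 in knockdown libraries. Without a stated strand setting reads there cannot be told apart, and this limit also holds for the RBL1 to RBL2 ratio. The RBL1 to RBL2 ratio of deposited values was 0.573, 0.557 and 0.605 in control libraries and 1.18, 1.2 and 1.2 in knockdown libraries. It differed 2.06-fold between groups, against an SD of 0.0245 in control and 0.0117 in knockdown libraries. The exact permutation test (two-sided) gave p = 0.1, again the smallest possible, and p = 0.1 after adjustment over the 2 ratios examined. Without any 1 library, the log2 difference of the RBL1 to RBL2 ratio lay between 1.02 and 1.08.

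**Figure D3:**
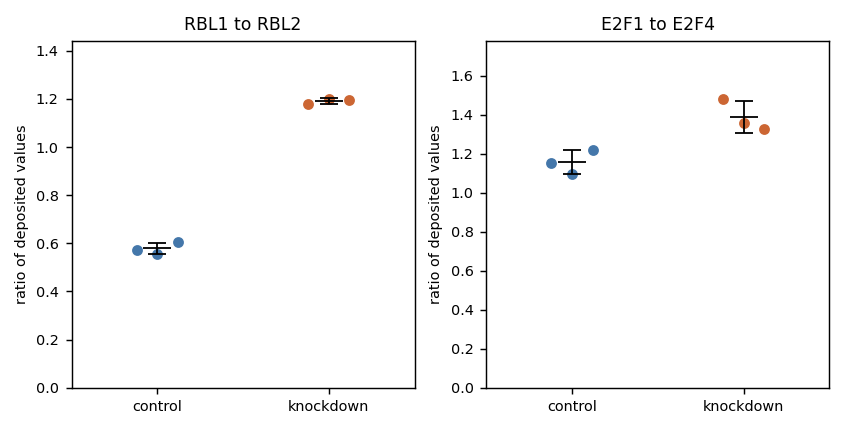
Within-library ratios of deposited values, RBL1 to RBL2 and E2F1 to E2F4, on linear axes from 0; points are libraries, and the bar and whiskers are the mean and SD of 3 libraries. The RBL1 to RBL2 ratio lies between 0.557 and 0.605 in control and between 1.18 and 1.2 in knockdown libraries.

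RB1, the retinoblastoma tumour suppressor gene, showed a small increase that depended on the analysis. It gave 37.5, 38.1 and 38.3 in control libraries and 41.4, 40.9 and 44.0 in knockdown libraries. The groups did not overlap, with knockdown replicate 3 the highest. The difference was 1.11-fold (log2 fold change 0.15, SE 0.05, limma adjusted p = 0.0250). The call was lost with median-ratio scaling (limma adjusted p = 0.0589), with library-size scaling (limma adjusted p = 0.0521), without control replicate 1 (limma adjusted p = 0.0743) and without knockdown replicate 3 (limma adjusted p = 0.0834). RB1 (ENSG00000139687.17) spans 48303744 to 48599436 on the plus strand of chromosome 13.

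The levels of the 10 genes relative to one another were compared per kilobase of GENCODE 29 exon sequence, counted as the union of exons or as the longest transcript. Most of these genes have deposited ends that differ from those of GENCODE 29, so the exon lengths behind the deposited values may differ too. For E2F1, the lower end is 33675477 as deposited and 33675683 in GENCODE 29. By both lengths the order in control cells began with TFDP1, E2F1, E2F4 and E2F3, and ended with RBL1, E2F7 and E2F2. With the union of exons, the control levels were 49.0 ± 1.32 for TFDP1, 30.7 ± 1.70 for E2F1, 18.5 ± 0.727 for E2F4 and 8.95 ± 0.307 for E2F3 (SD, n = 3 each). These 4 ranges did not touch. The next levels were 6.19 ± 0.348 for RBL2, 5.88 ± 0.0586 for RB1 and 5.53 ± 0.494 for E2F8, and neighbours in this order differed by less than the larger of their SDs (SD, n = 3 each). RBL1 at 4.40 ± 0.168, E2F7 at 3.97 ± 0.218 and E2F2 at 3.85 ± 0.302 followed, and the last 2 overlapped (SD, n = 3 each). In knockdown cells the order of the first 4 genes was the same by both lengths and E2F2 remained last, at 2.94 ± 0.410 (SD, n = 3). The gap between RBL1 and RBL2 in knockdown cells depended on the length: by the union of exons RBL1 stood at 6.59 ± 0.348 and RBL2 at 4.49 ± 0.194 (SD, n = 3 each), and by the longest transcript RBL1 was again the higher, at 6.91 ± 0.364 against 6.71 ± 0.289, but with overlapping libraries. RB1 in knockdown cells stood at 6.52 ± 0.261 by the union of exons, within the spread of RBL1, and at 8.78 ± 0.352 by the longest transcript, above it (SD, n = 3 each).

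**Figure D4:**
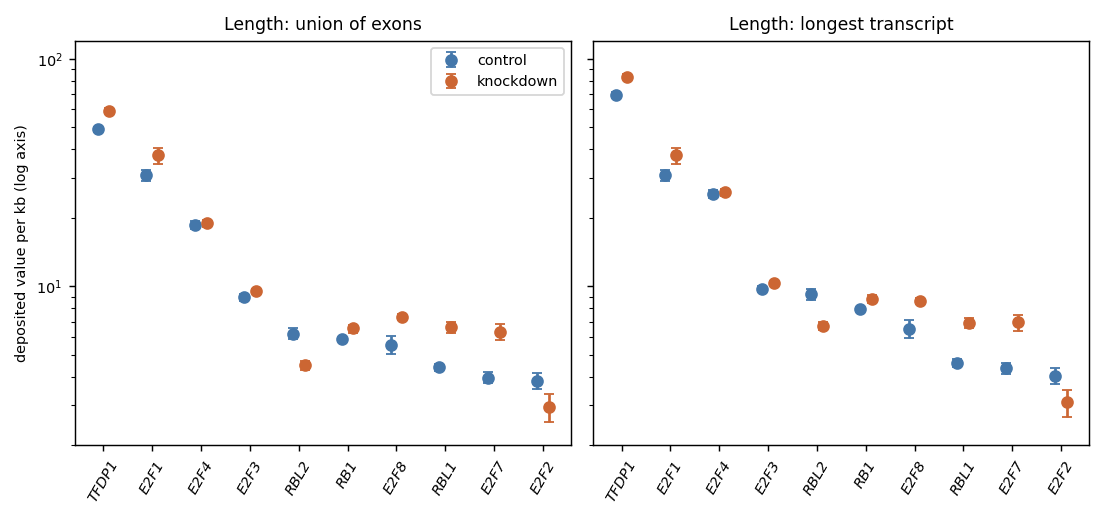
Deposited value per kilobase (log axis) of the 10 genes in control (blue) and knockdown (orange) cells, mean and SD of 3 libraries, with the union of exons on the left and the longest transcript on the right. TFDP1, E2F1, E2F4 and E2F3 lead in both groups, and E2F7, RBL1 and RBL2 shift most between groups.

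Of the remaining family genes, E2F5 fell with TFDP2, and E2F6 was not called. E2F5, a p130-associated repressor gene, was 38.0 ± 1.81 in control and 30.7 ± 0.665 in knockdown cells (SD, n = 3 each; log2 fold change -0.30, limma adjusted p = 0.000281). GENCODE 29 places 969 bases of its exons opposite those of C8orf59, listed in the table as RBIS, which rose from 54.0 ± 4.63 to 68.4 ± 6.90 (SD, n = 3 each), and reads of this pair cannot be told apart without strand. E2F6, a repressor that does not bind pocket proteins, had a log2 fold change of 0.04 (95% interval -0.10 to 0.19, limma adjusted p = 0.615). GENCODE 29 lists processed pseudogenes of E2F6 as well, and E2F6P1 is itself among the listed genes, so reads could have been split between copies.

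Upstream of the pocket proteins, most genes of their kinases were higher. Of 9 listed RB kinase and cyclin genes, including the phosphatase gene CDC25A, 7 were called higher, 1 lower and 1 in neither direction, and the list's median log2 fold change was 0.36, against 33.0% of all listed genes called higher and 27.8% called lower. The cyclin genes CCNE2, CCND3 and CCNE1 rose 4.99-fold, 1.36-fold and 1.35-fold, and CDC25A, whose product activates CDK2, was 1.17-fold lower. Tested against a fold of 1.2 (limma's treat), 3 of the 9 genes of this list were called higher, and 1144 of all 12227 listed genes. Of 7 inhibitor genes of these kinases, 3 rose, 3 fell and 1 was not called, against the same shares of all listed genes (33.0% and 27.8%). CDKN1A, CDKN2D and CDKN2C rose 3.21-fold, 1.68-fold and 1.67-fold, while CDKN2B, CDKN1C and CDKN2A were 2.58-fold, 1.96-fold and 1.74-fold lower.

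Among partners and regulators of the family, changes were smaller. Of 7 genes of the MuvB core and its activators, 3 rose and none fell, against 33.0% and 27.8% of all listed genes. Those that rose were FOXM1 (1.28-fold) and MYBL2 (1.18-fold), which encode late cell cycle transcription factors, and the core subunit gene LIN9 (1.13-fold). The LIN9 call (limma adjusted p = 0.0252) was lost with median-ratio scaling (limma adjusted p = 0.0533) and does not hold at a threshold of 0.01. The count of higher genes in this list was also 2 without control replicate 3 and without knockdown replicate 2. Against a fold of 1.2 it was 0. Of 10 genes of chromatin proteins that pocket proteins recruit, 2 rose and 5 fell; 7 of 10 called is close to the 60.9% of all listed genes, so nothing is read from the count. ARID4A, which encodes an RB-binding protein, the remodeller gene SMARCA4 and the corepressor gene SIN3A were 1.40-fold, 1.19-fold and 1.15-fold lower. The methyltransferase gene SUV39H1 rose 1.16-fold, and RBBP7 rose 1.08-fold, a call lost under both other scalings. Of 8 genes of proteins that degrade or dephosphorylate family members or bind them, 2 rose and 1 fell. Among all listed genes, 33.0% were called higher and 27.8% lower. FZR1, an activator of the anaphase-promoting complex, and CCNF, which encodes cyclin F, rose 1.30-fold and 1.19-fold, and SKP2 was 1.11-fold lower.

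G1/S and G2/M targets of the family were mostly higher, and death genes were called in both directions. Of 38 G1/S genes known as E2F targets, 31 were called higher, 1 lower and 6 in neither direction; the list's median log2 fold change was 0.33, and 33.0% of all listed genes were called higher. Besides CCNE2, the largest increases were those of RRM2 (2.11-fold), which makes deoxynucleotides, and TK1 (1.63-fold), which salvages thymidine. CDC25A was the 1 gene that fell. Of 23 G2/M genes repressed by the DREAM complex (p107 or p130 with E2F4 and MuvB) in resting cells, 16 were called higher, none lower and 7 in neither direction; the list's median log2 fold change was 0.15. The 16 of 23 called in either direction compare with 60.9% of all listed genes, and the 16 called higher with 33.0%. The largest increases were 1.49-fold for the ubiquitin-conjugating enzyme gene UBE2C, 1.47-fold for the mitotic kinase gene AURKB and 1.43-fold for CDK1. With either other scaling, and again without knockdown replicate 3, 13 of the G2/M genes rose and 2 fell. The 2 that fell with median-ratio scaling, named after their values were seen, were CENPF (log2 fold change -0.11, limma adjusted p = 0.0163) and MKI67 (-0.10, limma adjusted p = 0.0260). Most of these increases were small. Tested against a fold of 1.2 (limma's treat), 14 of the 38 G1/S genes and 4 of the 23 G2/M genes were called higher. Of all 12227 listed genes, 1144 were. With a 1.5-fold minimum, added after seeing the data, 4 G1/S and 0 G2/M genes were called higher, and 720 of all listed genes. Of 8 listed death genes described as E2F1 targets, 3 were called higher, 2 lower and 3 in neither direction, with BBC3 2.52-fold and CASP9 1.2-fold lower. These counts are close to the shares of all listed genes (33.0% higher and 27.8% lower), so nothing is read from them. These lists share members, among them CCNE1, CCNE2, CDC25A, MYBL2 and FOXM1, and are described by counts only.

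**Figure D5:**
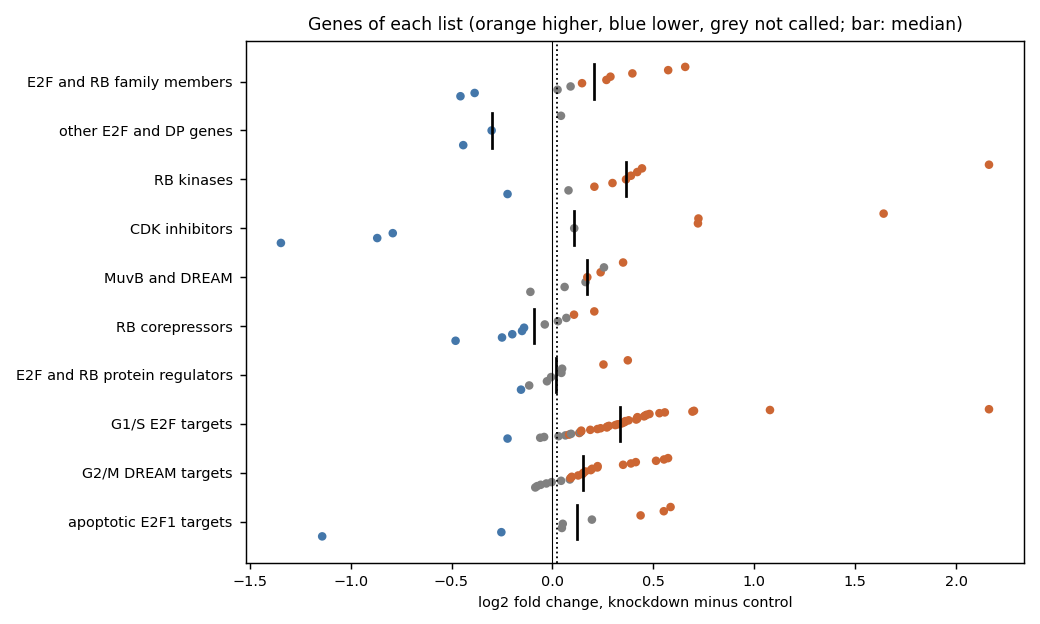
Log2 fold change (knockdown minus control) of each listed gene, by gene list; black bars are list medians, the dotted line is the median of all listed genes, and orange, blue and grey mark genes called higher, called lower and not called. The G1/S targets lie mostly to the right, with a median of 0.33, whereas the CDK inhibitors spread from -1.35 to 1.64.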

How the data were processed

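RNA sequencing values of 3 control and 3 VprBP knockdown PC3 libraries were used. Per the labels' protocols, a SMARTer mRNA-seq kit was used on total RNA. The values deposited by the authors are a scaled signal: gene-level read numbers multiplied by a step per library, the value of 1 read, read here from the spacing of low values. Between 55.5% and 64.9% of a library's values were whole multiples of that step, within 0.02 reads, so no count model was used. Each listed gene had 150 or more estimated reads in the library where it was highest. Partek and hg38 come from the submitters' processing notes; the sources used here give no aligner, annotation or strand setting.

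Genes were tested with limma 3.58.1 (trend; R 4.3.3) on log2(value + 0.5), all 12227 genes and 6 libraries, two-sided, Benjamini-Hochberg adjusted, called under 0.05. This scale understates log2 fold changes of low genes; plain folds are group mean over group mean. The procedure was also run on simulated data in which far fewer genes changed than were called here, so that run does not bear on the share called. The design fixed this test for scaled values. Gene ends are the deposited ends less 1. The members and lists were chosen with earlier results of these data known. Named by rule were DCAF1, the 10 genes, all further E2F and DP genes, up to 3 called genes per list and direction with a mean of at least 1, and the 5 genes most correlated with the member that changed most. The rule also selected a few genes whose values are left out. RefSeq promoter windows were matched by symbol. Alternatives were other scalings, pseudocounts, filters, limma-voom on estimated reads, a replicate block, stricter call rules and each library left out.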

Additional observations from a re-analysis of the deposited data

How the results depend on the processing

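The direction of all 10 genes was the same under all 16 alternatives. The stricter call rules, the replicate block and the filter leave log2 fold changes as they are, so direction could not change there. For E2F4 they lay between 0.000118 and 0.06, so its direction is not read. The others lay between 0.61 and 0.72 for E2F7, 0.54 and 0.62 for RBL1, 0.32 and 0.44 for E2F8, and 0.23 and 0.35 for E2F1. For TFDP1 they lay between 0.24 and 0.29, for RBL2 between -0.48 and -0.41, and for E2F2 between -0.45 and -0.27. RB1 lay between 0.11 and 0.17 and E2F3 between 0.06 and 0.11. RB1 lost its call under 7 of the 16 alternatives, and E2F3 and E2F4 gained none. With limma's treat against a fold of 1.2, 2 of the 10 genes were higher and 1 was lower (all genes: 1144 and 1187). With a 1.5-fold minimum, added after seeing the data, 1 was higher and 0 lower (all genes: 720 and 789). These rules ask for larger changes by construction. With the replicate block, 6 members were higher and 2 lower, and 3826 and 3216 of all genes. The replicate numbers do not show pairing: same-numbered libraries' deviations correlated at 0.03, -0.18 and -0.17, and the samples share only a number. Of 352 list counts recomputed, 54 moved by over 1.5 times or moved to or from 0. Without knockdown replicate 3, 5 members were higher and 2 lower. Depth limits E2F2 most.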

Other observations

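LPAR6, a lysophosphatidic acid receptor gene that lies within RB1 on the opposite strand, was looked at because of its position, and its values were seen before it was chosen. It was 7.04, 5.78 and 5.30 in control libraries and 1.96, 1.25 and 2.33 in knockdown libraries, 3.27-fold lower (log2 fold change -1.50, SE 0.19, limma adjusted p = 3.92e-06). GENCODE 29 shows no exon overlap between LPAR6 and RB1, whose own value was 1.11-fold higher.

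Among genes averaging at least 5, the 5 whose log2 values followed E2F7 most closely over the 6 libraries were TEX261, MIR31HG, SUPT6H, ZBTB38 and INPP4B, with Pearson correlations of 0.997 to 0.998. They share the same 6 libraries and the difference between the same 2 groups. Their increases ranged from 1.11-fold for SUPT6H to 1.54-fold for the long noncoding RNA gene MIR31HG, against 1.59-fold for E2F7.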
